A study of Homo sapiens with 30 samples.

Results

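The kallikrein genes KLK2, KLK3, KLK4, KLK11 and KLK15 were found by gene name among the 58735 genes of the deposited count and FPKM tables, which gave 5 genes, each matched by 1 entry. They were followed through 30 RNA-seq libraries of LNCaP, an established human prostate cancer cell line that depends on androgen. All cells, the controls included, carried a short hairpin RNA against mTOR, and an inducible system supplied the rescue. The rescue was wild-type mTOR (WT), mTOR tagged with a nuclear export signal (NES), mTOR tagged with a nuclear localization signal (NLS), the nuclear form with the kinase-dead change D2357E (NLSKD), or an empty vector (EV). Each of these 5 lines was kept for 48 h in RPMI with 2% charcoal-stripped serum, and then received 10 nM R1881, a synthetic androgen, or ethanol vehicle at 0.1% for 24 h. There were 3 libraries in each of the 10 groups, described as triplicates. Nothing in the labels says that they came from separate cultures, so each p-value measures the spread between these libraries, which may be technical. The labels name no clone and no cell pool for any line.

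Kallikreins are secreted serine proteases encoded by a tandem cluster on chromosome 19. In the prostate, luminal cells secrete several of them into seminal fluid, where they form a cascade that cleaves the proteins of the semen clot. KLK3 encodes prostate-specific antigen (PSA), a chymotrypsin-like protease used as a blood marker of prostate disease. KLK2, KLK4 and KLK15 encode trypsin-like members that can cleave the PSA precursor to its active form, and KLK11 encodes a trypsin-like member also made in the prostate. Androgen raises the transcription of KLK3 and KLK2 through elements upstream of both genes, and serum PSA is read as a measure of androgen action.

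The libraries held 21.4 to 61.8 M counts (median 24.5 M), and 3.90% to 11.7% of these came from mitochondrially encoded genes. MTOR, the knocked-down gene, lay between 49.4 and 621 FPKM in the 24 rescue libraries. In the 6 EV libraries it lay between 1.67 and 2.41 FPKM under vehicle and between 4.56 and 6.07 FPKM under R1881. The counts cannot separate the MTOR construct from the cell's own gene. All 10 luminal prostate markers were detected, while 5 of 6 basal, 7 of 8 neuroendocrine, 6 of 8 mesenchymal and 6 of 6 immune markers stayed below 1 FPKM in every library. Levels are FPKM, which the authors scaled by gene length and by depth. Tests used raw counts, and calls needed a p under 0.05 from edgeR's quasi-likelihood test after Benjamini-Hochberg adjustment over 18296 genes. Fold changes are on the log2 scale with their standard error.

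The files name hg38, and all 5 genes lie on chromosome 19. KLK3 (ENSG00000142515) runs from 50854915 to 50860764 on the plus strand, and KLK2 (ENSG00000167751) follows it from 50861568 to 50880567 on the same strand. KLK4 (ENSG00000167749, 50906352 to 50910738), KLK15 (ENSG00000174562, 50825289 to 50837213) and KLK11 (ENSG00000167757, 51022216 to 51028039) lie on the minus strand. All are protein-coding. Stretches of 50 bases were taken from every position of the transcripts, so they overlap each other. KLK3 and KLK2 shared 11 of them, which was 0.215% of those of KLK3 and 0.159% of those of KLK2, and no stretch of 100 bases. The 11 need not be separate regions. Counts of this pair are uncertain to the extent that reads were assigned across the copies.

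KLK3 and KLK2 are shown by sequence because they are neighbouring copies whose levels parted between the lines, as described further on. The lines hold the 250 bases before the RefSeq start site of each gene in GRCh38.p14, chr19:50854665-50854914 for KLK3 and chr19:50873189-50873438 for KLK2, both on the plus strand and written 5′ to 3′. The start site that RefSeq gives for KLK2 lies inside the longer gene span of the deposited files. Capitals mark 14 bases that both sequences hold.
KLK3: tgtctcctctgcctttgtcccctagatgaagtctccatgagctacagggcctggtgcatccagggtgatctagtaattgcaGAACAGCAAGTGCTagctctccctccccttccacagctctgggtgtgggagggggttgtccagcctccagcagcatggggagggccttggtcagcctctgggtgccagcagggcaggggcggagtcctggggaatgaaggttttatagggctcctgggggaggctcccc
KLK2: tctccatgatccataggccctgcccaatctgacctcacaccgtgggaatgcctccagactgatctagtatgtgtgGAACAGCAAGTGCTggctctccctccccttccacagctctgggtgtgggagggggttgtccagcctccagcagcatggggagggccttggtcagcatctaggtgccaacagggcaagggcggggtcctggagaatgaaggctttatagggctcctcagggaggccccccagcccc
Over these upstream stretches 205 of 262 aligned columns were identical, or 78.2%, whereas all other pairs of start sites of different members gave 39.0% to 48.4%. The capital run GAACAGCAAGTGCT was chosen after the sequences had been compared. It lies at -169 to -156 from the start site of KLK3 and at -175 to -162 from that of KLK2, in 2 of 35116 RefSeq promoter windows of 300 bases (0.00570%), searched on both strands. With the base before it, the run reads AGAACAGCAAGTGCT in KLK3 and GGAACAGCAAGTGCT in KLK2, which differ by A1G, counted from 1 at the 5′ end with the KLK3 base first. Because of that base, KLK3 holds AGAACA, the reverse complement of TGTTCT, an arm of the palindromic androgen response element, at -170 to -165. KLK2 does not hold this hexamer in its window, nor do the windows of KLK4, KLK11 and KLK15. TGTTCT was present, on either strand, in 14.8% of all windows. The full palindrome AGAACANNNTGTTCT was present in 1 window of all and in none of the 8 windows of the 5 genes. These matches describe letters in short windows and say nothing about binding in these cells.

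KLK3 was the most abundant of the genes per length in every group, and KLK4 was next in all groups but NES under R1881, where KLK2 was. KLK15 was the lowest of these 4 except in WT under vehicle, where its level (1.34 ± 0.135 FPKM) lay above that of KLK2. KLK3 was highest in NES under R1881 (1097 ± 173 FPKM, SD, n = 3) and lowest in NLSKD under vehicle (77.6 ± 18.4 FPKM). KLK2 was highest in EV under R1881 (124 ± 12.8 FPKM) and lowest in WT under vehicle (1.09 ± 0.0823 FPKM). KLK4 was highest in EV under R1881 (165 ± 57.9 FPKM) and lowest in WT under vehicle (24.3 ± 4.14 FPKM). KLK15 was highest in EV under R1881 (3.33 ± 0.539 FPKM) and lowest in NLSKD under vehicle (0.809 ± 0.295 FPKM). The highest group of KLK2, of KLK4 and of KLK15 overlapped the next in order, so the libraries do not separate it. That of KLK3 lay above the next in order, WT under R1881, but overlapped NLS under R1881. The highest NLS library there had 1038 FPKM and the lowest NES library 906 FPKM, so the libraries do not separate NES either. Under vehicle alone, KLK15 averaged 2.09 ± 0.480 FPKM in NES and 1.78 ± 0.895 FPKM in EV, which overlapped.

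KLK11 was at the limit of detection. It had 11 counts over all libraries, in 5 of 30. The counts were 2 in replicate 2 and 2 in replicate 3 of NES under R1881, 4 in replicate 1 of NLS under R1881, 1 in replicate 3 of NES under vehicle and 2 in replicate 1 of NLS under vehicle. No count fell in WT, NLSKD or EV. A count of 0 allows up to 3 counts, or 0.0486 to 0.140 CPM in the 25 libraries without one, by counting error only, so KLK11 was not detectable there at this depth and was not tested. Of the 5 genes, 4 passed the filter on low counts.

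**Figure D1:**
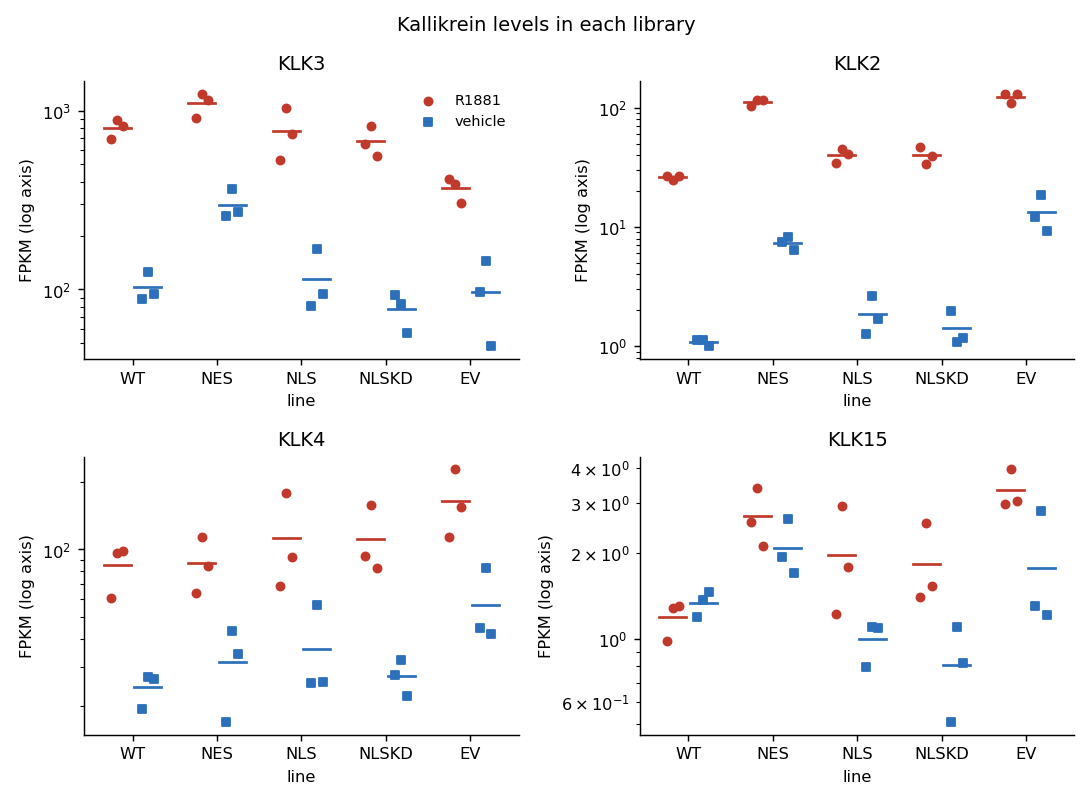
Levels of KLK3, KLK2, KLK4 and KLK15 in FPKM on a log axis, 1 panel per gene, with each point a library, the bar the mean of 3 libraries, red circles R1881 and blue squares vehicle, for the lines WT, NES, NLS, NLSKD and EV. KLK3 has its lowest R1881 level in EV (369 FPKM), while KLK2 has its highest there (124 FPKM).

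The response to R1881 was asked first, in each line against its own vehicle. KLK3, KLK2 and KLK4 rose in all 5 lines, KLK2 the most and KLK4 the least in each, and KLK15 was called in none. That gave 15 calls among 20 tests, all of them higher with R1881. The share of all genes called in either direction was 6.48% in WT, 8.25% in NES, 4.44% in NLS, 4.08% in NLSKD and 9.11% in EV, and the share that rose was 3.47%, 4.21%, 2.78%, 2.48% and 4.55% in the same order. In bulk RNA, more cells with a transcript and more transcript per cell cannot be told apart.

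In WT, KLK3 had 690, 881 and 816 FPKM under R1881, against 88.6, 126 and 94.1 FPKM under vehicle. In NES it had 906, 1243 and 1143 FPKM under R1881, against 257, 365 and 271 FPKM under vehicle. The groups did not overlap in either line, and the vehicle libraries of NES were all above those of WT. In NLS, KLK3 had 531, 1038 and 743 FPKM under R1881, against 81.2, 167 and 94.4 FPKM under vehicle. In NLSKD it had 647, 816 and 554 FPKM under R1881, against 93.0, 82.6 and 57.3 FPKM under vehicle. In EV it had 414, 391 and 303 FPKM under R1881, against 97.4, 144 and 48.0 FPKM under vehicle. Every R1881 library again lay above every vehicle library of its line, and the 3 EV libraries under R1881 were the lowest of the 15 treated ones. The log2 change with R1881 was 2.97 ± 0.33 in WT, 1.91 ± 0.32 in NES, 2.77 ± 0.33 in NLS, 3.14 ± 0.34 in NLSKD and 1.93 ± 0.32 in EV (SE), or 3.75-fold in NES to 8.81-fold in NLSKD.

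KLK2 had the same direction with a wider range. In WT it had 26.9, 25.1 and 27.0 FPKM under R1881, against 1.14, 1.14 and 0.994 FPKM under vehicle. In NES it had 104, 117 and 116 FPKM under R1881, against 7.43, 8.30 and 6.43 FPKM under vehicle. The NES libraries exceeded the WT libraries of the same treatment several-fold, with no overlap. In NLS, KLK2 had 34.6, 45.2 and 41.2 FPKM under R1881, against 1.27, 2.66 and 1.69 FPKM under vehicle. In NLSKD it had 46.8, 33.9 and 39.3 FPKM under R1881, against 1.98, 1.08 and 1.18 FPKM under vehicle. In EV it had 132, 110 and 132 FPKM under R1881, against 12.2, 18.6 and 9.20 FPKM under vehicle. The libraries of EV under vehicle lay above all other vehicle libraries, and R1881 and vehicle did not overlap in any line. KLK2 rose by 4.61 ± 0.28 in WT, 3.95 ± 0.27 in NES, 4.44 ± 0.28 in NLS, 4.84 ± 0.28 in NLSKD and 3.21 ± 0.26 in EV on the log2 scale, which is 24.4-fold, 15.4-fold, 21.7-fold, 28.7-fold and 9.27-fold. The line with the highest treated level, EV, thus had the smallest fold, as its vehicle level was also the highest.

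KLK4 rose less. In WT it had 61.1, 96.3 and 98.1 FPKM under R1881, against 19.5, 27.0 and 26.3 FPKM under vehicle. In NES it had 63.7, 114 and 84.8 FPKM under R1881, against 17.0, 43.2 and 34.3 FPKM under vehicle. Neither line had an overlap between treatments. In NLS it had 68.4, 178 and 93.0 FPKM under R1881, against 25.4, 56.4 and 25.7 FPKM under vehicle. In NLSKD it had 93.2, 158 and 82.9 FPKM under R1881, against 27.5, 32.2 and 22.2 FPKM under vehicle. In EV it had 113, 228 and 154 FPKM under R1881, against 44.8, 82.8 and 41.9 FPKM under vehicle. R1881 libraries stayed above vehicle libraries in each of these lines too, but replicate 2 was the highest library in 9 of the 10 groups. The log2 change was 1.83 ± 0.40 in WT (edgeR adjusted p = 0.00374), 1.49 ± 0.40 in NES (0.0167), 1.68 ± 0.40 in NLS (0.0108), 2.05 ± 0.41 in NLSKD (0.00182) and 1.54 ± 0.40 in EV (0.0124). Some of these calls were lost when any 1 of several libraries was left out. In NES the edgeR adjusted p was 0.134 without vehicle replicate 1 and 0.0934 without R1881 replicate 2. In NLS it was 0.101 without vehicle replicate 1, 0.0924 without vehicle replicate 3, 0.107 without R1881 replicate 2 and 0.201 when only the compared groups were fitted. In EV it was 0.0751 without vehicle replicate 1, 0.0749 without vehicle replicate 3 and 0.0852 without R1881 replicate 2.

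KLK15 had no call in any line in the edgeR fit, with an unadjusted p under 0.05 in 3 of 5 lines, 1 call with DESeq2, and 1 with limma on log2(FPKM + 1) but 0 with a pseudocount of 0.1. In WT it had 0.978, 1.28 and 1.31 FPKM under R1881, against 1.19, 1.37 and 1.46 FPKM under vehicle, and the groups overlapped. In EV it had 2.98, 3.95 and 3.06 FPKM under R1881, against 1.31, 2.81 and 1.21 FPKM under vehicle, with no overlap. Replicate 2 stood apart in EV under vehicle, and without it the log2 change of 0.90 ± 0.34 (edgeR adjusted p = 0.109) became 1.39 (0.0154). In NLSKD it had 1.41, 2.56 and 1.53 FPKM under R1881, against 0.508, 1.10 and 0.821 FPKM under vehicle, also with no overlap. Its log2 change there was 1.21 ± 0.36 (edgeR adjusted p = 0.0537), and 1.48 (0.0440) without vehicle replicate 2. It was called with DESeq2 (1.18, adjusted p = 0.0209) and without the 5 libraries above 9% of mitochondrial counts (1.46, edgeR adjusted p = 0.0265). With the replicate number as a block the change was 1.20 in NLSKD (edgeR adjusted p = 0.00174) and 0.96 in EV (0.00487), so both would be called. NLS gave 0.997 ± 0.35 (edgeR adjusted p = 0.132), and 1.27 (0.0474) without R1881 replicate 1, while NES gave 0.39 ± 0.34 and WT -0.15 ± 0.35. Whether KLK15 was called in NLS, NLSKD and EV thus depended on the setting, and in WT its interval ran from -0.87 to 0.56.

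Replicate 2 was the highest library of its group for KLK3 in 8 of 10 groups, for KLK15 in 8 and for KLK2 in 5. The mitochondrial share of counts was highest in replicate 2 in 6 of 10 groups and in replicate 3 in 4. Its part in the results was not tested. Without the 5 libraries above 9%, the KLK2 and KLK3 responses to R1881 were called in every line. That fit kept every WT library and most libraries numbered replicate 2, so it does not settle the part of either.

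**Figure D2:**
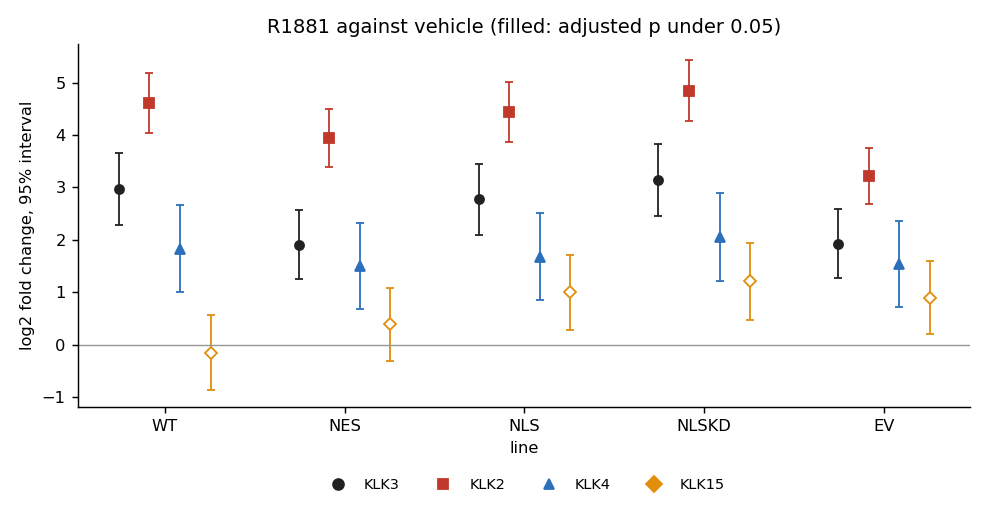
Log2 fold change of KLK3, KLK2, KLK4 and KLK15 in R1881 over vehicle for each line, with 95% intervals, and filled symbols where edgeR's adjusted p was under 0.05. KLK2 has the largest change in each line, from 3.21 in EV to 4.84 in NLSKD, and the open symbols of KLK15 run from -0.15 in WT to 1.21 in NLSKD.

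Whether the response itself differed between lines was tested as an interaction. No member was called among 24 tests with edgeR, against 7 with an unadjusted p under 0.05, 1 call with DESeq2 and 0 with limma. The share of all genes called was 0.0437% for WT against EV, 0.0164% for NLS against EV, 0.0164% for NLSKD against EV and 0% for the other 3 comparisons. KLK2 gave the largest differences, with a response larger than in EV by 1.63 ± 0.34 in NLSKD (edgeR adjusted p = 0.150), 1.40 ± 0.34 in WT (0.303), 1.23 ± 0.34 in NLS (0.518) and 0.74 ± 0.34 in NES (1). For KLK3 the difference from EV was 1.21 ± 0.44 in NLSKD, 1.04 ± 0.44 in WT, 0.84 ± 0.44 in NLS and -0.02 ± 0.44 in NES. The KLK2 difference was called for NLSKD with DESeq2 (1.60, adjusted p = 0.0137), and for WT without the 5 libraries of high mitochondrial share (1.62, edgeR adjusted p = 0.0392). With no filter on low counts both NLSKD (1.58, edgeR adjusted p = 0.00198) and WT (1.39, 0.0236) were called for KLK2. KLK4 differed from EV by -0.05 to 0.51, and each interval included zero. KLK15 went the other way in WT, where its response was -1.05 ± 0.49 from that in EV, with an interval from -2.05 to -0.05 that is not adjusted for the number of tests. It was 1 of the 7 with an unadjusted p under 0.05 and was not called. In the other lines KLK15 differed from EV by -0.51 to 0.31, with intervals that included zero.

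In the rescue lines against EV, each call of KLK3 was higher and each call of KLK2 was lower. KLK3 was higher in WT, NES and NLS under R1881 and in NES under vehicle, and KLK2 was lower in 7 of 8 comparisons. In all, 12 of 32 tests were called, 4 higher and 8 lower, the eighth lower call being KLK15 in WT under R1881. The share of all genes called in either direction under R1881 was 8.49% in WT cells, 6.96% in NES cells, 6.23% in NLS cells and 5.75% in NLSKD cells, and under vehicle 6.71%, 4.94%, 4.57% and 4.01% in the same order of lines. These comparisons share their EV libraries. The luminal prostate markers, which hold none of the 5 genes, moved as well. Their summed level under R1881 was 1394 to 1618 FPKM in WT, 1661 to 1727 in NES, 1312 to 1556 in NLS, 1235 to 1510 in NLSKD and 2130 to 2508 in EV. Under vehicle it was 777 to 869 FPKM in WT, 886 to 972 in NES, 791 to 848 in NLS, 759 to 839 in NLSKD and 1029 to 1178 in EV. Each rescue library thus had a lower sum than each EV library of its treatment. Against EV, the WT cells had 2 of 10 markers lower under R1881 and 4 under vehicle, the NES cells 2 under each, the NLS cells 4 and 5, and the NLSKD cells 4 under each. The single higher call was ACPP, which encodes prostatic acid phosphatase, in NES under vehicle (0.85 ± 0.22), while TMPRSS2, a membrane-bound serine protease gene, was lower in all 8 comparisons (-2.09 to -1.13). Basal markers summed to at most 1.73 FPKM in any library. Of these, ITGB4, an integrin gene, was lower than EV under vehicle in WT (-1.75), NES (-1.60) and NLS (-1.57), and KRT14, a basal keratin gene with few counts, in WT. The summed level of the mesenchymal markers went the other way in most comparisons. It rests on few genes, as 6 of 8 stayed below 1 FPKM in every library. Of the 8 markers 5 were tested, and only 1 was higher than EV in each of the 8 comparisons. In NLS and in NLSKD under vehicle 1 was lower. Their summed level under R1881 was 2.38 to 2.79 FPKM in EV, and the lowest rescue library, in NES, had 3.68 FPKM. Under vehicle the WT, NES and NLS libraries also lay above those of EV, and the NLSKD libraries overlapped them. The part of these shifts in the kallikrein differences was not tested.

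Under R1881, KLK3 exceeded EV by 1.14 ± 0.31 in WT (2.21-fold, edgeR adjusted p = 0.0204), 1.60 ± 0.32 in NES (3.04-fold, 0.00164) and 1.08 ± 0.31 in NLS (2.11-fold, 0.0365). In NLSKD the difference was 0.89 ± 0.31 (edgeR adjusted p = 0.0999), and 0.87 (0.0119) with the replicate block. It was also called with no filter on low counts (0.86, edgeR adjusted p = 0.00889) and without the 5 libraries above 9% of mitochondrial counts (0.88, 0.0220). In each of the 4 lines all 3 libraries lay above all 3 EV libraries. The call in WT was lost without EV replicate 2 (edgeR adjusted p = 0.0540) or 3 (0.104) and without WT replicate 2 (0.0904) or 3 (0.0708). The call in NLS was lost without EV replicate 1 (edgeR adjusted p = 0.0743), 2 (0.0821) or 3 (0.165), without NLS replicate 2 (0.190) or 3 (0.0890) and without the 5 libraries above 9% of mitochondrial counts (0.80, 0.0659). It was also lost when only the compared groups were fitted (edgeR adjusted p = 0.138) and with limma (adjusted p = 0.0598 with a pseudocount of 1 and 0.0600 with 0.1), so 9 of 14 alternatives ended it. The call in NES was kept with any library left out. Under vehicle, KLK3 in NES was above EV by 1.63 ± 0.32 (3.09-fold, edgeR adjusted p = 0.00158), again with no overlap, though the adjusted p was 0.0680 when only the compared groups were fitted. The other lines gave 0.10 ± 0.31 in WT, 0.24 ± 0.31 in NLS and -0.32 ± 0.31 in NLSKD under vehicle, and their libraries overlapped those of EV.

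KLK2 was lower than EV under vehicle by 12.2-fold in WT (-3.60 ± 0.27), 9.46-fold in NLSKD (-3.24 ± 0.26) and 7.16-fold in NLS (-2.84 ± 0.26). Under R1881 it was lower by 4.62-fold in WT (-2.21 ± 0.25) and by 3.05-fold in both NLS (-1.61 ± 0.24) and NLSKD (-1.61 ± 0.24). None of these lines overlapped EV under either treatment. NES stood apart from the other rescues. Its KLK2 was -0.85 ± 0.24 from EV under vehicle (1.80-fold lower, edgeR adjusted p = 0.0361), and -0.12 ± 0.24 under R1881 (0.868, interval -0.60 to 0.37), where its libraries overlapped those of EV. The vehicle call was lost without EV replicate 1 (edgeR adjusted p = 0.0655) or 2 (0.326) and without NES replicate 1 (0.0998), 2 (0.0694) or 3 (0.206). It was also lost when only the compared groups were fitted (edgeR adjusted p = 0.262). The NES and EV libraries under vehicle did not overlap.

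KLK4 was not called against EV in any of 8 comparisons with edgeR, although 5 had an unadjusted p under 0.05, DESeq2 called 1 and limma 0. Every difference was below zero, from -1.21 ± 0.40 in WT under vehicle (edgeR adjusted p = 0.0702) to -0.53 ± 0.39 in NLS under R1881. The call depended on the setting, and the share of all genes called in the settings below is not given here. With no filter on low counts 5 of 8 were called, and with only the compared groups 2, both in WT. The replicate block called 6 of 8, among them NLS under vehicle (-0.69, edgeR adjusted p = 0.0391). That was the only one of the 6 that met the rule for pairing given with the processing, and pairing is uncertain in the others. KLK15 was lower in WT than in EV under R1881 by 2.73-fold (-1.45 ± 0.35, edgeR adjusted p = 0.00721), with all WT libraries below all EV libraries. The other differences of KLK15 ran from -1.14 ± 0.35 in NLSKD under vehicle (edgeR adjusted p = 0.0738) to 0.24 ± 0.34 in NES under vehicle. The NLSKD difference was called with DESeq2 (-1.14, adjusted p = 0.0293) and without the 5 libraries above 9% of mitochondrial counts (-1.62, edgeR adjusted p = 0.0304). With the replicate block KLK15 was lower under R1881 in NLS (-0.80, edgeR adjusted p = 0.0242) and NLSKD (-0.87, 0.0147), and under vehicle in NLS (-0.77, 0.0454).

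**Figure D3:**
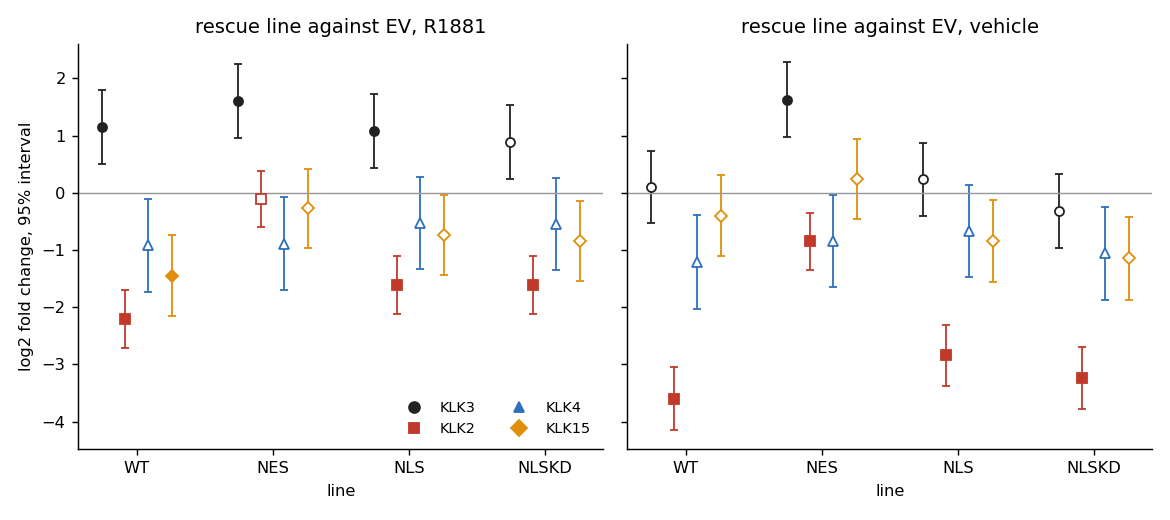
Log2 fold change of KLK3, KLK2, KLK4 and KLK15 in each rescue line over EV, under R1881 on the left and vehicle on the right, with 95% intervals, and filled symbols where edgeR's adjusted p was under 0.05. Under R1881 KLK3 lies above zero in WT, NES, NLS and NLSKD (0.89 to 1.60), while KLK2 lies below it in WT, NLS and NLSKD and at -0.12 in NES.

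Since the calls of KLK2 and KLK3 against EV went opposite ways, the ratio of their FPKM within each library was compared, a measure that does not depend on library size. Under R1881 there were 3.35 ± 0.527 FPKM of KLK2 per 100 FPKM of KLK3 in WT, 10.3 ± 1.03 in NES, 5.47 ± 1.08 in NLS, 6.16 ± 1.74 in NLSKD and 34.4 ± 8.02 in EV (SD, n = 3 each). Under vehicle there were 1.08 ± 0.192 in WT, 2.52 ± 0.334 in NES, 1.65 ± 0.119 in NLS, 1.83 ± 0.452 in NLSKD and 14.9 ± 3.71 in EV. The EV libraries lay above every rescue library of the same treatment. The ratio was lower than in EV by 11.8-fold in WT cells, 4.38-fold in NES cells, 7.46-fold in NLS cells and 6.79-fold in NLSKD cells. The ratio was chosen after the opposite calls were known, so these values are a description and are given with no test. The ratio was 3.18-fold higher under R1881 than under vehicle over the 5 lines, with no overlap in any line. FPKM divides by the length of all annotated exons, which was 6394 bases for KLK2 and 4639 for KLK3, while their longest principal transcripts have 3019 and 1463 bases. The size of the ratio depends on these lengths, and the differences between groups do not.

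**Figure D4:**
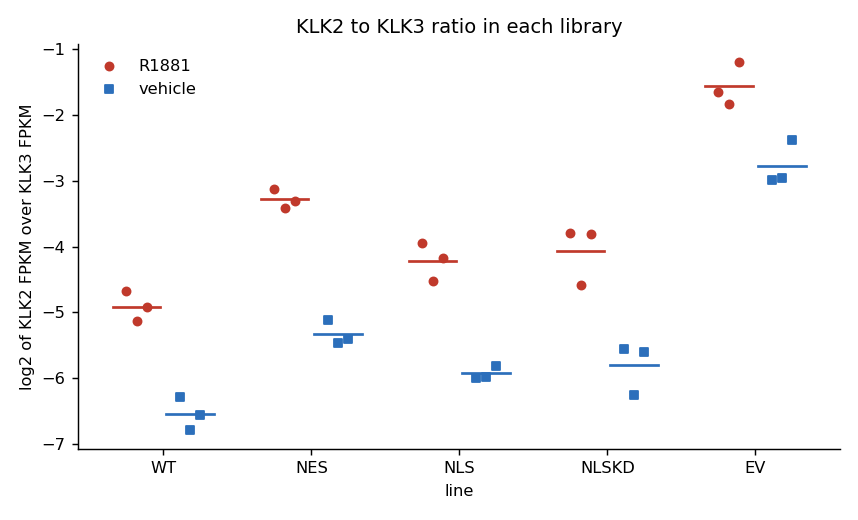
Log2 of KLK2 FPKM over KLK3 FPKM in each library (points) with the mean of 3 libraries (bars), red circles for R1881 and blue squares for vehicle. Each EV library lies above all rescue libraries of its treatment, and R1881 lies above vehicle in each line.

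The rescue lines, whose mTOR is directed to different places in the cell, were then set against each other. Their MTOR levels differed too. MTOR had 346 ± 112 FPKM in NES, 85.1 ± 31.1 in NLS, 87.8 ± 29.9 in NLSKD and 129 ± 13.1 in WT under R1881 (SD, n = 3 each). Under vehicle it had 430 ± 165 FPKM in NES, 76.5 ± 23.6 in NLS, 83.6 ± 35.0 in NLSKD and 150 ± 22.6 in WT. The NES libraries lay above and the NLS libraries below those of WT in both treatments, and the NLSKD libraries lay below those of WT under vehicle but overlapped them under R1881. So the level and the location of mTOR cannot be told apart in the comparisons with NES or WT. Of 32 tests 6 were called, 3 higher and 3 lower, and all involved NES and either KLK2 or KLK3. The share of all genes called was 1.45% under R1881 and 1.2% under vehicle for NES against WT, and 1.37% and 1.03% for NLS against NES. KLK2 was higher in NES than in WT by 4.27-fold under R1881 (2.09 ± 0.25, edgeR adjusted p = 9.53e-06) and 6.74-fold under vehicle (2.75 ± 0.26, 1.98e-07). It was lower in NLS than in NES by 2.82-fold under R1881 (-1.49 ± 0.24, edgeR adjusted p = 0.000808) and 3.97-fold under vehicle (-1.99 ± 0.25, 4.93e-05). The libraries did not overlap in any of these 4 comparisons. When only the compared groups were fitted, the NLS and NES difference in KLK2 was not called (edgeR adjusted p = 0.126 under R1881 and 0.0680 under vehicle).

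KLK3 was higher in NES than in WT under vehicle by 2.88-fold (1.53 ± 0.32, edgeR adjusted p = 0.00978) and lower in NLS than in NES by 2.62-fold (-1.39 ± 0.32, 0.0247), with no overlap in either comparison. The first call was lost without WT replicate 1 (edgeR adjusted p = 0.0761) or 3 (0.0661) or NES replicate 2 (0.0651). The second was lost without NES replicate 2 (edgeR adjusted p = 0.129) or 3 (0.0614), without NLS replicate 1 (0.218) or 3 (0.142), and when only the compared groups were fitted (0.243). Under R1881 KLK3 gave 0.46 ± 0.31 for NES against WT (edgeR adjusted p = 0.790) and -0.52 ± 0.31 for NLS against NES (0.709), with intervals from -0.18 to 1.10 and from -1.16 to 0.12. KLK4 differed by -0.39 to 0.54 in these 8 comparisons, with no unadjusted p under 0.05. KLK15 was uncalled too, but with the replicate block it was higher in NES than in WT under R1881 (1.18, edgeR adjusted p = 0.00346, against 0.102 without the block). DESeq2 also called it (1.18, adjusted p = 0.0291). The difference between NLS and NES under vehicle was -1.08 ± 0.35 (edgeR adjusted p = 0.195).

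NLSKD and NLS, which differ by the kinase-dead change, were not told apart by any member. No test was called among 8, with no unadjusted p under 0.05 and no call with DESeq2 or limma, and the share of all genes called was 0.00547% under R1881 and 0.0109% under vehicle. For KLK2 under R1881 the difference was -0.00 ± 0.24 with an interval from -0.49 to 0.49, and for KLK3 it was -0.19 ± 0.31 with an interval from -0.83 to 0.45. Under vehicle KLK2 gave -0.40 ± 0.25 (-0.91 to 0.11) and KLK3 gave -0.56 ± 0.31 (-1.20 to 0.08). Changes within these intervals cannot be told from none. NLS and WT gave no call among 8 tests either, with 2 unadjusted p under 0.05, both for KLK2, which was higher in NLS by 0.60 ± 0.24 under R1881 and 0.76 ± 0.25 under vehicle. The vehicle difference was called with no filter on low counts (0.79, edgeR adjusted p = 0.0430). The share of all genes called for NLS against WT was 0.465% under R1881 and 0.481% under vehicle, and DESeq2 and limma called none of the 8.

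Along the locus, 25 genes are annotated from KLK1 to KLK14, and 6 of them reached a group mean of 1 FPKM. These 6 were KLK15, its antisense gene AC011523.1, KLK3, KLK2, the pseudogene KLKP1 and KLK4. They are neighbours at the KLK1 end of the cluster, while 9 of the 25 had no count and KLK14 at the other end reached 0.607 FPKM in its highest library. KLKP1, which lies between KLK2 and KLK4, had 1.63 ± 0.204 FPKM in WT and 4.53 ± 1.07 FPKM in EV under R1881 (SD, n = 3 each). It rose with R1881 in WT (1.17 ± 0.35), NLSKD (1.30 ± 0.36) and EV (1.09 ± 0.34). The changes in NLS (1.08 ± 0.35, edgeR adjusted p = 0.0865) and NES (0.91 ± 0.34, 0.112) were not called. Against EV, KLKP1 was lower under R1881 in WT (-1.44 ± 0.34), NLS (-1.13 ± 0.34) and NLSKD (-1.37 ± 0.34) and under vehicle in WT (-1.53 ± 0.35) and NLSKD (-1.58 ± 0.36). Uncalled were NES under R1881 (-1.01 ± 0.33, edgeR adjusted p = 0.0698) and, under vehicle, NLS (-1.12 ± 0.35, 0.0669) and NES (-0.84 ± 0.34, 0.218). AC011523.1 had 26 to 59 counts in EV under R1881 and 5 to 9 in EV under vehicle, and rose there (2.42 ± 0.60, edgeR adjusted p = 0.00949). Against EV it was called only in NLS under R1881, where it was lower (-1.93 ± 0.59, edgeR adjusted p = 0.0484). It overlaps KLK15 on the other strand with exons apart, and without a stated strand setting its reads and those of KLK15 introns cannot be told apart. Of 11 other kallikreins, KLKP1 included, 2 were tested, and the second, KLK14, was not called against vehicle or EV.

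**Figure D5:**
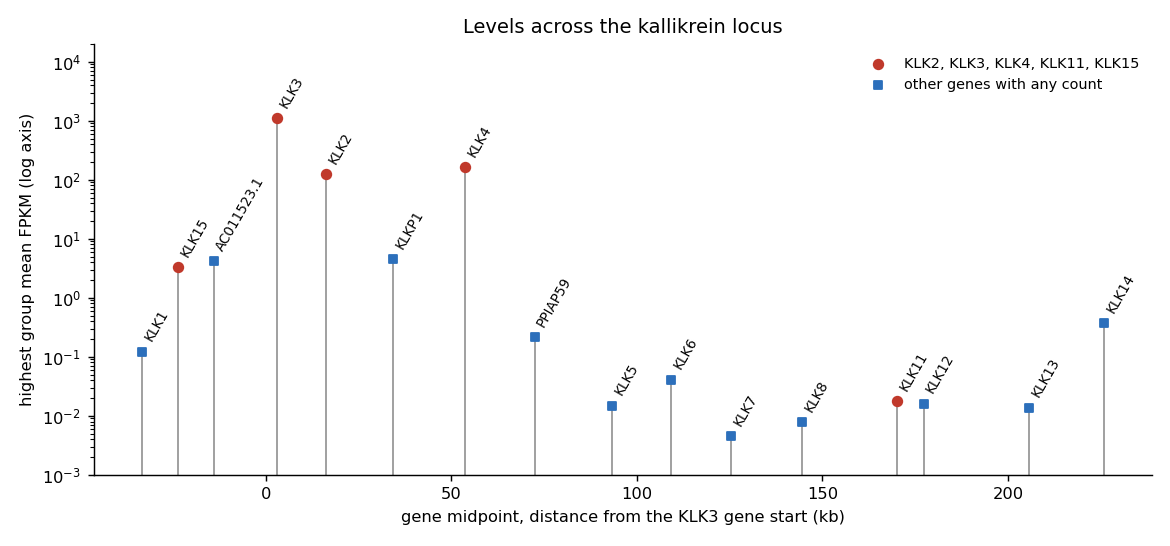
Highest group mean FPKM (log axis) of the genes with any count between KLK1 and KLK14, against the distance of each gene's midpoint from the start of KLK3 in kb. Red circles are KLK2, KLK3, KLK4, KLK11 and KLK15, and blue squares are the other genes. KLK15, AC011523.1, KLK3, KLK2, KLKP1 and KLK4 stand above 1 FPKM, and KLK11 lies at 0.0178 FPKM.

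Transcription factors and coactivators that act at kallikrein enhancers were followed as a list, of which 10 genes are reported, all tested. GRHL2, which encodes an epithelial transcription factor, rose with R1881 in all 5 lines, by 1.14 in EV to 1.40 in NES, and none of the other 9 was called in any line. Against EV, NCOA1, a coactivator gene, was higher in WT under R1881 (0.97 ± 0.28, edgeR adjusted p = 0.0291), and GRHL2 was lower in NLSKD under vehicle (-0.58 ± 0.16, 0.0390). No other gene of the 10 was called against EV.

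Of 12 protease inhibitors that can act on kallikreins 6 were tested. SPINT1, a membrane-bound Kunitz inhibitor, was lower than EV under R1881 in WT, NES, NLS and NLSKD (-0.68 to -0.64), and under vehicle in WT (-0.71) and NES (-0.69). SERPINB5, a serpin known as maspin, fell with R1881 in WT (-1.08), NES (-1.23) and EV (-1.08), and no other inhibitor was called in those comparisons. Of 10 substrates 6 were tested. F2RL1, which encodes the protease-activated receptor PAR2, rose with R1881 in WT (1.24), NES (1.04), NLS (1.25) and EV (1.23). With R1881, 2 of the 6 substrates rose in WT and 1 each in NES and NLS, while in EV 2 rose and 2 fell. IGFBP3, an insulin-like growth factor binding protein cleaved by PSA, rose in WT (1.24) and fell in EV (-1.28). That difference in response was called (2.51 ± 0.43, edgeR adjusted p = 0.0142), though the means of IGFBP3 in those groups were only 0.537 to 1.89 FPKM. The other calls in EV were IGF1, which rose, and PTHLH, which fell, both below 0.3 FPKM in every EV library.

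Over the 10 group means of log2 CPM, Pearson's r with KLK2 was 0.93 for KLK4, 0.83 for KLK3 and 0.81 for KLK15, and r between KLK3 and KLK15 was 0.58. These values describe 10 points that share libraries and a common response to R1881. Among 10304 other protein-coding genes (10305 for KLK15) with a mean of at least 5 CPM, the pattern of KLK2 was most like that of the ion channel gene TRPM8 (r = 0.98), with CSGALNACT1, PLPP5 and KNSTRN (0.97 to 0.98) also among the 5 most alike. For KLK3 they included MCCC2 (r = 0.98), ZNF385B, EMP2 and TBRG1 (0.96 to 0.97). For KLK4 they were PPFIBP2 (r = 0.99), F5, TMPRSS2, TMCC3 and ANKH (0.98), and for KLK15 they were GLO1 (r = 0.94), GEMIN6, C9orf152, METTL3 and TMBIM1 (0.91 to 0.92). No gene stood in more than 1 of these lists of 5.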

How the data were processed

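Total RNA from 30 samples was made into libraries with NEBNext Ultra II and sequenced as paired-end reads of 150 bases on a NovaSeq instrument, per the labels' protocols. Raw counts and FPKM values per gene and library were deposited, per the file headers. HISAT2 2.0.5, featureCounts 1.5.0-p3 and hg38 are named in the submitters' processing notes. How strand and multiply mapped reads were handled is not given in the sources used here. In each library 100% of genes with at least 50 counts gave the same FPKM denominator within 0.1%, and count totals were 0.913 to 1.08 of it. The identifier, start and end of all 58735 genes matched GENCODE 29.

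Counts were tested in R 4.3.3 with edgeR 4.0.16 (TMM, filterByExpr, glmQLFit, glmQLFTest) in 1 fit of all 30 libraries without a block, tested on simulated data, with 27 comparisons and Benjamini-Hochberg adjustment over 18296 genes in each. Alternatives used DESeq2 1.42.0, limma 3.58.1 on log2(FPKM + 1) and log2(FPKM + 0.1), RLE factors, no filter, the compared groups alone, a replicate block, and libraries left out. Intervals are 95% and come from the edgeR fit, so they rest on the spread between libraries. The floors given for KLK11 cover counting error only. Replicate numbers come from the labels, which give them no meaning. They were taken to pair samples where every same-numbered correlation was over 0.1, which held for 17 of 33 pairs of groups and 12 of 27 comparisons. This rule does not weigh correlations between different numbers, which were higher in some of these pairs. For NES and WT under R1881 the highest of those was 0.377, and the lowest same-numbered correlation was 0.128. Pairing is thus uncertain there too. Blocked values stand in the text where they changed a call in those 12. Promoter sequences are RefSeq's, on GRCh38.p14, aligned with Biopython 1.88. Named genes were the 5 members, up to 4 per list and comparison by adjusted p, the genes of the locus, and the 5 genes most like each member by r. A few genes that these rules name are not reported here. The members, lists and rules were chosen with earlier results of these data known.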

Additional observations from a re-analysis of the deposited data

Results flagged for a closer look

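For 1 gene named above, the response to R1881 differed between WT and EV by the test of that difference over all genes. IGFBP3 rose with R1881 by 1.24 ± 0.30 in WT and fell by 1.28 ± 0.30 in EV, a difference of 2.51 ± 0.43 (edgeR adjusted p = 0.0142). Its level under R1881 was 1.89 ± 0.456 FPKM in WT and 0.537 ± 0.162 FPKM in EV, and under vehicle 0.808 ± 0.0672 FPKM in WT and 1.29 ± 0.288 FPKM in EV (SD, n = 3 each).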

How the results depend on the processing

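The 15 R1881 calls of KLK3, KLK2 and KLK4 kept their direction under all alternatives, and those of KLK3 and KLK2 their call. Against EV the higher calls numbered 2 in place of 4 when only the compared groups were fitted, and 2 to 4 with a library left out, the 2 coming without replicate 2 or 3 of EV under R1881. The lower calls numbered 13 in place of 8 with no filter on low counts and 18 with the replicate block. Between rescues, the lower calls numbered 0 in place of 3 with only the compared groups. Differences between responses had 1 call in place of 0 with DESeq2, 2 with no filter, 1 with the block and 1 without the 5 libraries above 9% of mitochondrial counts. The cause was not tested. The shares of all genes called belong to the main fit, and none is given for these settings. Calls gained with a setting, the block included, may therefore not be particular to these genes.

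Some values whose intervals in the main fit included zero changed sign. KLK3 in WT against EV under vehicle was -0.24 without the 5 libraries above 9% of mitochondrial counts and ran from -0.22 to 0.51 with a library left out, and in NLS against EV it was -0.45 and ran from -0.13 to 0.64. The R1881 difference of NLSKD from NLS became 0.078 for KLK3 and 0.078 for KLK2 without those 5 libraries, and 0.0063 for KLK2 with the block. The vehicle difference of KLK2 became 0.091, and the KLK3 response of NES from EV 0.18, without those 5. With a library left out, NLSKD from NLS ran from -0.41 to 0.096 for KLK3 and -0.15 to 0.10 for KLK2 under R1881, and from -0.60 to 0.091 for KLK4 under vehicle. The response of NES from EV ran from -0.43 to 0.30 for KLK3 and -0.42 to 0.26 for KLK4. KLK3 in NLSKD against EV under vehicle ran from -0.64 to 0.085, and KLK15 in WT against EV under vehicle from -0.60 to 0.087, with a library left out. None of these was called.

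The block gained 17 calls of 108 and lost 0. Of the 17, 8 are given beside their results and 9 came in comparisons whose numbers did not pair the samples, where they share only a number. These 9 were KLK4 against EV in WT and NES under both treatments and in NLSKD under vehicle, KLK15 in NLS with R1881, KLK15 in NLSKD against EV and in NLS against NES under vehicle, and the KLK2 response of NLSKD against EV. The block changed no other call. The KLK2 to KLK3 ratio kept its direction under every alternative run. Depth limits KLK11, whose 11 counts allow no comparison.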
